A study of Macaca fascicularis with 48 samples.

Results

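The genes described here code for the machinery that shortens the poly(A) tails of messenger RNAs and then degrades the RNA body, mostly from its 3′ end. They were chosen by name: all CNOT, EXOSC and PABPC genes with a number, plus PAN2, PAN3, PARN, the terminal nucleotidyltransferases TUT1, TUT4, TUT7, MTPAP, TENT2 and TENT5A to TENT5C, the exonucleases DIS3, DIS3L, DIS3L2 and XRN1, and the adaptors TOB1, TOB2, BTG1 and BTG2. Of the 16842 gene names in the deposited table, 41 met this rule. TUT1 and BTG1 have no value here. A member's level is given as CPM, the counts scaled to a common library size, or per length as RPKM, the CPM divided by the length of the gene model in kilobases.

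Removal of the poly(A) tail is usually the first step in the turnover of a messenger RNA. The CCR4-NOT complex does most of it, with CNOT1 as its scaffold and CNOT6, CNOT6L, CNOT7 and CNOT8 as its deadenylases, beside the PAN2-PAN3 pair and PARN. TOB and BTG proteins bring CCR4-NOT to its targets, and cytoplasmic poly(A)-binding proteins (PABPC) coat the tail. Terminal nucleotidyltransferases work on the same end: TENT2 and the TENT5 proteins add adenines, and TUT4 and TUT7 add uridines to short tails. The trimmed RNA is then taken apart by the exosome, a ring of EXOSC subunits with DIS3, DIS3L or EXOSC10 as its nucleases, by DIS3L2, or from the other end by XRN1.

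The RNA came from cynomolgus monkeys (Macaca fascicularis) dosed with GS-8873 by oral gavage for 13 weeks. According to the submitters, GS-8873 inhibits transcripts of the hepatitis B virus. The dose was 6 mg/kg/day in treated and 0 mg/kg/day in control animals, and strain and age are not given in the sources used here. The 6 tissues were liver, spinal cord at 3 levels (cervical, thoracic, lumbar) and dorsal root ganglia at 2 levels (cervical, lumbar), which hold the cell bodies of sensory neurons. Each tissue had 4 control and 4 treated libraries, with 2 males and 2 females per group. The same 4 control animals gave every tissue, whereas the labels name 6 treated animals, since the treated ganglia came in part from animals other than those that gave liver and cord. The submitters' design text counts 8 animals, 4 per dose, and the labels were followed here. The libraries are of bulk tissue, in which fewer cells of a type and less RNA per cell cannot be told apart.

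Libraries held 35453786 to 53480762 counts, of which all members together made up 0.0926% to 0.257%. Tissue markers went with the labels except in 3 cord libraries. ALB, the albumin gene, had 120300 to 165200 CPM in liver. The oligodendrocyte gene MOG was at 0.258 and 0.0870 CPM in lumbar cord control 1 and treated 1, against 330 to 657 CPM in the other 6. Cervical cord control 1 also stood apart, with 16.6 CPM of the neuronal gene SNAP25 against 758 to 2191 CPM in the other 7. Treated replicate 4 of liver, of each cord region and of cervical ganglia came from 1 animal, treated animal 5. Its cervical cord, lumbar cord and cervical ganglion libraries stood apart in the members and in mitochondrial counts. Its thoracic cord had 36.4% mitochondrial counts, beside 37.3% in thoracic cord control 4.

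The level of the members in untreated tissue was set out first. Per length, PABPC1, the main cytoplasmic poly(A)-binding protein, was the most abundant member in all 5 cord and ganglion tissues of control animals, at 52.97 to 65.2 RPKM on average. In liver TOB1 came first with 324 ± 91.7 RPKM (SD, n = 4) and PABPC1 second with 266 ± 24.9 RPKM. The other members stood far lower per length, led in liver by CNOT1 (54.7 ± 15.6 RPKM) and PAN2 (52.6 ± 2.95 RPKM), the catalytic subunit of its pair. Before division by length, PABPC1 (695 CPM) and CNOT1 (440 CPM) stood above TOB1 (336 CPM) in liver. The first place of TOB1 thus depends on its gene model of 1038 bases. Levels across tissues are on the TMM scale, and the comparisons below give what total counts do to those of liver. PABPC3, PABPC1L, TENT5B and TENT5C averaged under 1 RPKM in every tissue, and PABPC5 did so in liver.

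**Figure D1:**
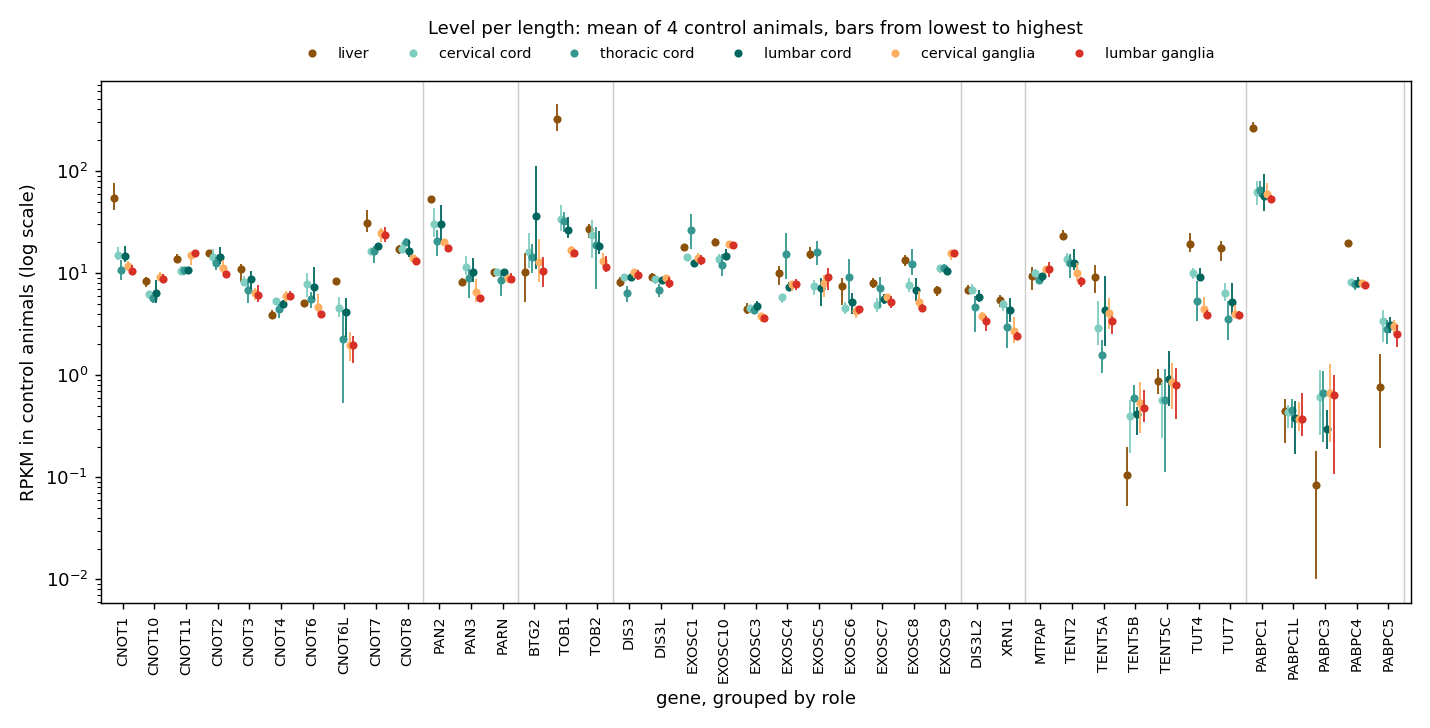
Level per length of the 41 members in control animals (RPKM, logarithmic axis), grouped from left to right as CCR4-NOT, other deadenylases, BTG and TOB, exosome, other exonucleases, tail-adding enzymes and poly(A)-binding proteins. Points are means of 4 animals and bars run from the lowest to the highest animal, with values under 0.01 drawn at 0.01. TOB1 and PABPC1 in liver, at 324 and 266 RPKM, stand above all other points.

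TOB1, an adaptor that binds CCR4-NOT and PABPC1, differed most between tissues in its mean level. Its 4 control livers had 246, 447, 262 and 339 RPKM, its 4 cervical cords 46.2, 26.9, 36.4 and 25.7 RPKM, and its 4 lumbar ganglia 15.2, 16.1, 15.7 and 15.99 RPKM. The 3 tissues did not overlap, and the ganglia differed by less than 1 RPKM among animals. BTG2, its relative, ran from 5.19 to 15.7 RPKM in liver and from 7.36 to 14.4 RPKM in lumbar ganglia, which overlap. In lumbar cord it was at 111 RPKM in control 1, a library nearly without MOG, and at 10.9 to 11.3 RPKM in the other 3 controls. CNOT1 had 41.3 to 76.3 RPKM in liver against 9.79 to 11.9 RPKM in lumbar ganglia. TUT4 had 16.1 to 24.6 RPKM in liver, 8.69 to 11.1 RPKM in cervical cord and 3.59 to 4.32 RPKM in lumbar ganglia, again with no overlap.

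Between liver and lumbar ganglia of the control animals, 29 of 41 members were called at an edgeR adjusted p under 0.05, where 72.2% of all genes were. Of these, 24 were higher and 5 lower in liver, against 4956 genes higher and 5882 lower over the whole table. The largest log2 differences on the higher side were those of TOB1 (4.38 ± 0.25, SE), CNOT1 (2.38 ± 0.20), PABPC1 (2.34 ± 0.23) and TUT4 (2.32 ± 0.24). Each was higher in liver in 4 of 4 animals. Lower in liver were PABPC5, an X-linked poly(A)-binding protein gene (-1.72 ± 0.42), EXOSC9, a ring subunit (-1.21 ± 0.10), and CNOT4, a ubiquitin ligase bound to the complex (-0.61 ± 0.10). TENT5B (-2.18 ± 0.48) and PABPC3 (-2.90 ± 0.65) were also called lower, and both averaged at most 1.23 CPM in either tissue.

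The direction of many of these calls changes with the scaling between tissues. Scaling by total counts in place of TMM moved the median log2 difference of all genes from -0.14 to -1.29. On that scale 5 members were called higher in liver (TUT4, PABPC1, TUT7, TOB1 and CNOT1) and 22 lower. The median of all genes, at -1.29, lay on the same side as the 22 lower calls. EXOSC3, an RNA-binding cap subunit of the exosome, went from 0.33 ± 0.10 to -0.83. The 5 that were called higher and the 5 that were called lower (TENT5B, CNOT4, EXOSC9, PABPC5 and PABPC3) were called in the same direction under all 3 scalings run (TMM, median-ratio size factors and total counts). Relative to all genes, the median member lay 0.58 above the median gene, and 33 of 41 members lay above that gene. These values were the same on either scale. A change of scaling shifts all genes by nearly the same amount, so this sameness was nearly fixed in advance and is no test.

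Liver against cervical cord shares the liver libraries with that comparison. Of 41 members, 27 were called, 20 higher and 7 lower in liver, where 72.2% of all genes were called, 4747 higher and 6087 lower. TOB1 (3.30 ± 0.23), PABPC1 (2.14 ± 0.23), CNOT1 (1.88 ± 0.19) and TENT5A, a non-canonical poly(A) polymerase (1.85 ± 0.41), led the higher side. On the lower side were PABPC5 (-2.17 ± 0.43), EXOSC9 (-0.71 ± 0.10), the deadenylase CNOT6 (-0.59 ± 0.19) and PAN3, which tethers PAN2 to its targets (-0.47 ± 0.19). Without control animal 2 or 3 CNOT6 no longer passed (edgeR adjusted p = 0.0520 and 0.0573), nor did PAN3 without animal 1 or 3 (0.161 and 0.135). With total counts 30 members were called, 3 higher and 27 lower in liver. The median of all genes was itself -1.36 there, in place of -0.20 with TMM, and 33 of 41 members lay above that median. On that scale the TENT5A value was 0.68 (edgeR adjusted p = 0.129), and only TOB1, PABPC1 and CNOT1 were called higher under all 3 scalings.

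Between cervical ganglia and cervical cord, total counts moved the median of all genes by 0.04. Of 41 members, 19 were called, 5 higher and 14 lower in ganglia, where 44.2% of all genes were called, 3158 higher and 3481 lower. With total counts 13 were called (5 higher, 8 lower) and with median-ratio size factors 17, beside 6219 and 6697 genes over the whole table. The same 5 higher and 8 lower members were called under all 3 scalings. The higher ones were CNOT10 (0.57 ± 0.11) and CNOT11 (0.52 ± 0.10), which form a module of the CCR4-NOT complex, the deadenylase CNOT7 (0.55 ± 0.14), EXOSC9 (0.49 ± 0.10) and the nuclear exosome nuclease EXOSC10 (0.48 ± 0.12). CNOT6L (-1.19 ± 0.40), TUT4 (-1.16 ± 0.23), TOB1 (-0.98 ± 0.22) and the 5′ exonuclease XRN1 (-0.90 ± 0.23) had the largest lower values. Of the other deadenylases of the complex, CNOT6 was at -0.72 ± 0.20, lower in ganglia in 3 of 4 animals, and CNOT8 at -0.28 ± 0.11. Leaving out control animal 1, 2 or 3 brought the 19 calls to 10, 9 and 10. The calls over the whole table fell too, from 6639 to 5792, 3963 and 4687. CNOT6L no longer passed in any of these fits (edgeR adjusted p = 0.124, 0.127 and 0.0603), nor did CNOT7 without animal 1 (0.0511). The cervical cord of control animal 1 is the library with 16.6 CPM of SNAP25.

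The question of the treatment comparisons was which of these genes differed between treated and control animals in each tissue. No member passed an edgeR adjusted p of 0.05 in any of the 6 tissues. DESeq2 called 4 members in lumbar ganglia and 0 in the other 5 tissues, and limma voom called 0 in all 6. In lumbar ganglia DESeq2 called 1650 genes over the whole table and limma voom 593. With edgeR, 0% of all genes passed in liver, in each cord region and in cervical ganglia, and 4.29% passed in lumbar ganglia. The members are described below by their levels and log2 fold changes, and by how many had an unadjusted p under 0.05 beside the same share of all genes.

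**Figure D2:**
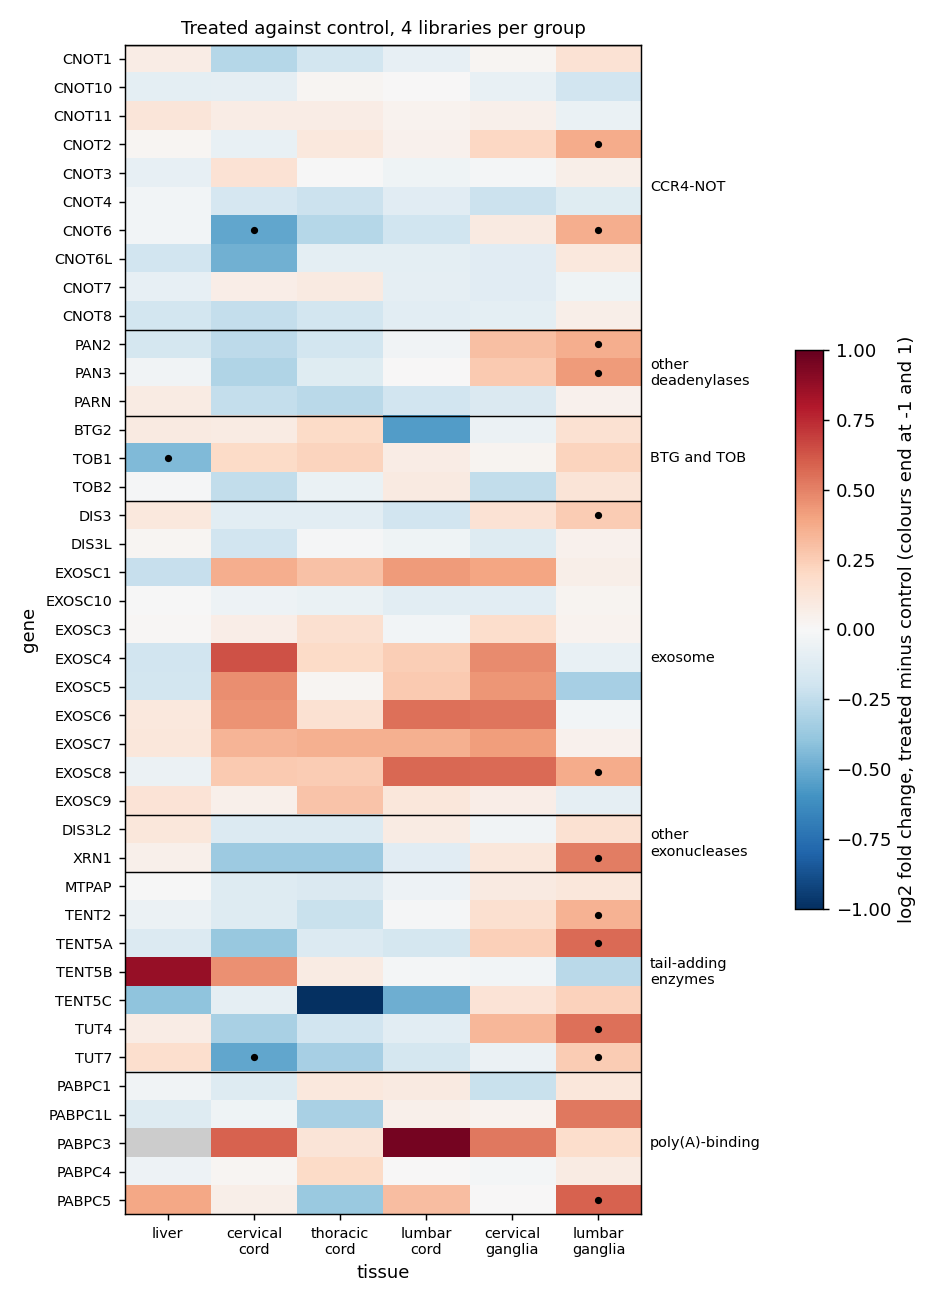
Log2 fold change of each member (listed by role) in each tissue (columns), treated minus control, 4 libraries per group. Black dots mark an unadjusted edgeR p under 0.05, grey a gene under the count filter, and colours end at -1 and 1. The lumbar ganglion column has 12 dots, and most EXOSC genes are red in the cord and cervical ganglion columns.

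In lumbar ganglia the members with the smallest p were deadenylase subunits and a tail-modifying enzyme, all with higher levels in treated animals. PAN3 was at 42.02, 40.1, 42.7 and 45.3 CPM in the controls and at 62.3, 59.7, 49.7 and 56.9 CPM in the treated libraries. Its log2 fold change was 0.42 ± 0.10 (SE), with an edgeR adjusted p of 0.0544. The lowest treated library lay above the highest control. TUT4, the uridylyltransferase, had 29.9, 25.7, 26.7 and 31.8 CPM in controls against 52.1, 42.6, 33.5 and 39.95 CPM in treated animals (0.55 ± 0.14; edgeR adjusted p = 0.0729). Its groups did not overlap, and treated replicate 3 lay closest to the controls.

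CNOT6, a catalytic subunit of CCR4-NOT, had 32.97, 32.7, 31 and 35.1 CPM in controls and 47.7, 41.5, 39.8 and 40.6 CPM in treated animals (0.36 ± 0.09; edgeR adjusted p = 0.0737). CNOT2, a subunit of the same complex, had 41.3, 40.99, 43.4 and 45.2 CPM against 63.7, 55.2, 47.9 and 55.0 CPM (0.37 ± 0.11; edgeR adjusted p = 0.0909). For both, all 4 treated libraries lay above all 4 controls.

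TENT2, a cytoplasmic poly(A) polymerase, had 31.6 to 41.2 CPM in controls and 42.9 to 51.2 CPM in treated animals (0.35 ± 0.11). XRN1 had 27.98 to 32.9 CPM against 34.2 to 61.1 CPM (0.51 ± 0.17), with treated replicate 1 far above the other 3. DIS3, the exosome nuclease of the nucleus, had 41.7 to 51.2 CPM against 54.2 to 58.1 CPM (0.26 ± 0.09). The groups did not overlap in any of these 3 genes.

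**Figure D3:**
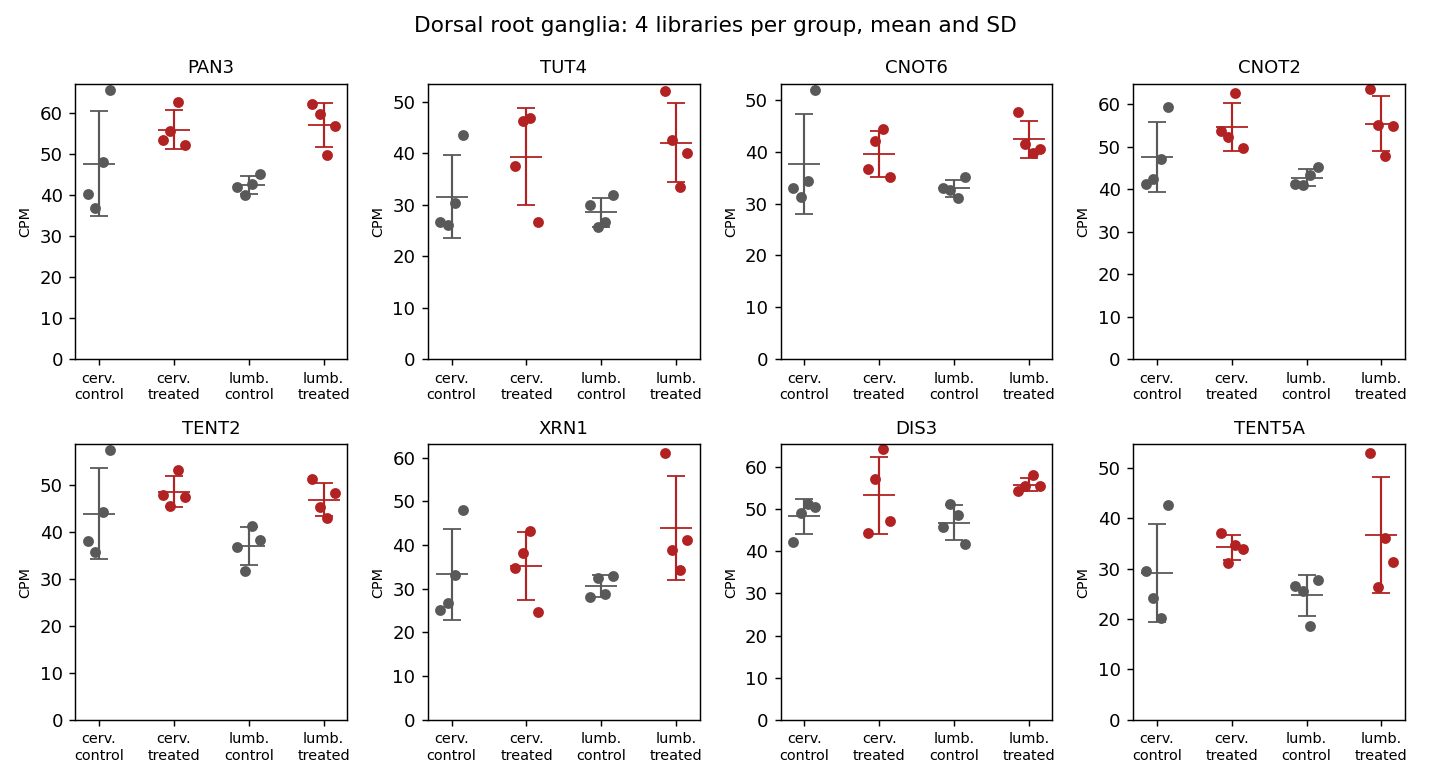
CPM of 8 members in cervical and lumbar dorsal root ganglia, with controls in grey and treated animals in red. Points are the 4 libraries of a group, horizontal lines the mean and bars the SD, and all axes start at 0. In lumbar ganglia the 2 groups are apart for PAN3, TUT4, CNOT6, CNOT2, TENT2, XRN1 and DIS3. In cervical ganglia control replicate 4 lies above all 4 treated libraries for PAN3, CNOT6, TENT2, XRN1 and TENT5A.

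In all, 12 of 41 members in lumbar ganglia had an unadjusted edgeR p under 0.05, all with higher values in treated animals, where 22.6% of all genes had one in either direction and 10.1% with higher values. The other 5 were PABPC5 (0.59 ± 0.20), EXOSC8 (0.37 ± 0.13), PAN2 (0.36 ± 0.13), TENT5A (0.57 ± 0.22) and TUT7 (0.26 ± 0.10). The groups did not overlap in 9 members, all of them higher in treated animals, where 16.7% of all genes did not overlap and 7.38% were apart on the higher side. The median log2 fold change was 0.12 over the members and 0.05 over all 14267 genes tested, and 32 of 41 members had positive values.

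By role, the positive values were uneven. All 3 non-CCR4-NOT deadenylases were positive (median 0.36), but PARN stood at 0.04 ± 0.11. Among 10 CCR4-NOT genes 6 were positive (median 0.06), with the scaffold CNOT1 at 0.14 ± 0.09 and the deadenylases CNOT6L, CNOT7 and CNOT8 at 0.10 ± 0.25, -0.04 ± 0.09 and 0.06 ± 0.11. Among 7 tail-adding enzymes 6 were positive (median 0.26), and TENT5C, at about 1 CPM, gave 0.23 ± 0.38. Of the exosome, 5 of 9 EXOSC genes were positive, with a median of 0.02 and a range from -0.33 to 0.37. PABPC1 and PABPC4 gave 0.12 ± 0.14 and 0.09 ± 0.08, and TOB1, TOB2 and BTG2 gave 0.22 ± 0.16, 0.13 ± 0.17 and 0.16 ± 0.31.

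Several measures of the libraries are set beside these values, and their part in them was not tested. Some were apart between the groups and others overlapped. The summed level of 7 general neuron markers was 14510 to 18500 CPM in control and 7189 to 10050 CPM in treated lumbar ganglia, and 6 of the 7 had negative fold changes (median -0.62), of which 3 fell at an edgeR adjusted p under 0.05. Of 8 sensory neuron markers 6 were negative (median -0.22, 0 called), with sums of 3320 to 4258 and 1887 to 5356 CPM. All 6 central myelin markers (median 0.14), both satellite glia markers (0.15) and all 5 microglia and macrophage markers (0.26) were positive, with 0 called. All 5 peripheral myelin markers (median -0.13), both motor neuron markers (-0.97, 1 called), all 3 skeletal muscle markers (-2.87, 0 called), both red cell (-1.47, 0 called) and both adipocyte markers (-0.37, 0 called) were negative, as were 4 of 5 T, B and NK cell markers (-0.30, 0 called). Of the hepatocyte, astrocyte and endothelial markers 3 of 5, 2 of 3 and 2 of 4 were positive, with 0 called. Mitochondrial counts made up 8.31% to 10.5% in controls and 8.56% to 11.4% in treated libraries.

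Members passed the threshold in lumbar ganglia under 3 other settings. DESeq2 called 4 (TUT4, CNOT6, CNOT2 and PAN3, at 0.53, 0.35, 0.36 and 0.41), edgeR without the sex term called PAN3 alone, and edgeR on total counts called 12, all higher, but there the median of all genes was itself 0.24. Over the whole table these settings called 1650, 731 and 1843 genes, in place of 612 in the main fit. In 1 edgeR fit of all 48 libraries 3 of 41 members had an unadjusted p under 0.05, where 8.98% of all genes had one. Without control replicate 1 there were 5, where 15.7% of all genes had one.

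In cervical ganglia PAN3, TUT4, CNOT6, CNOT2, TENT2, XRN1 and DIS3 had positive values from 0.09 (CNOT6) to 0.33 (TUT4). Of the other members with an unadjusted edgeR p under 0.05 in lumbar ganglia, EXOSC8, PAN2 and TENT5A (0.24 ± 0.25) were positive. PABPC5 stood at 0.004 ± 0.34 and TUT7 at -0.055 ± 0.25. The ganglion levels share all control animals and some treated animals, so their values are not independent. PAN3 had 40.2, 36.9, 48.1 and 65.7 CPM in controls and 53.4, 55.8, 62.7 and 52.2 CPM in treated animals (0.26 ± 0.19; edgeR adjusted p = 0.752). TUT4 had 26.6, 26.03, 30.2 and 43.5 CPM against 37.5, 46.2, 46.7 and 26.6 CPM (0.33 ± 0.26). The highest control of both was replicate 4, above all 4 treated libraries for PAN3 and above 2 of them for TUT4. Its 7 general neuron markers summed to 8003 CPM, against 13430 to 16280 CPM in the other 3 controls and 7556 to 9700 CPM in treated libraries. PAN2 (0.30 ± 0.20), EXOSC8 (0.57 ± 0.28) and EXOSC6 (0.54 ± 0.37) were the other members with the smallest p. Of 41 members 0 had an unadjusted p under 0.05, where 7.35% of all genes had one, and only MTPAP, the poly(A) polymerase of mitochondria, had groups that did not overlap, where 5.48% of all genes did so.

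The exosome values of the cervical ganglia change when treated replicate 4 is left out. EXOSC6 was at 20.04 CPM in it and at 6.52 to 8.21 CPM in the other 3 treated libraries, and the controls had 6.10 to 7.69 CPM. EXOSC8 was at 26.2 CPM in it and at 9.97 to 12.8 CPM in the other 3. With it, 8 of 9 EXOSC genes were positive (median 0.42). Without it, 3 of 9 were (median -0.10), 4 members had an unadjusted p under 0.05, all higher, and 14.4% of all genes had one.

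The ganglia of both levels were fitted together in limma with the animal as a block, from 16 libraries of 10 animals. Of 41 members 0 were called, where 0.943% of all genes were, and edgeR and DESeq2 on counts summed per animal also called 0. An unadjusted p under 0.05 was found for 4, all with higher values in treated animals, where 11.5% of all genes had one and 3.45% on the higher side. They were TENT5A (0.46 ± 0.21; limma adjusted p = 0.406), EXOSC8 (0.47 ± 0.21), TUT4 (0.42 ± 0.19) and CNOT2 (0.29 ± 0.13). The median was 0.09 over members and 0.05 over all genes. Without treated animal 5, which gave cervical replicate 4, TUT4 passed (0.51; limma adjusted p = 0.0493), 11 members (10 of them higher) had an unadjusted p under 0.05, where 22.7% of all genes had one, and 963 genes were called in place of 137. With the replicate number as a block, 0 members had an unadjusted p under 0.05, where 10.3% of all genes had one. Without control animal 1, 2 or 3 or treated animal 3 the count was also 0, where 6.44% to 9.53% of all genes had one.

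The members whose levels ran most like that of TENT5A over the 16 ganglion libraries, which share animals and treatment groups, were CNOT6 (Pearson r = 0.77 of log2 levels), TOB1 (0.72), CNOT2 (0.71), PAN3 (0.67) and TUT4 (0.66).

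In liver, the tissue with the highest TOB1, this gene had the smallest p of all members. It had 143, 258, 153 and 199 CPM in controls and 148, 136, 147 and 121 CPM in treated animals, on the scale of the liver libraries alone (-0.44 ± 0.19; edgeR adjusted p = 0.583). The groups overlapped, with control replicates 2 and 4 above all other libraries, and without control replicate 2 the value was -0.24. EXOSC1, a cap subunit of the exosome, had 9.31 to 10.3 CPM against 7.86 to 9.09 CPM (-0.23 ± 0.11), and CNOT6L had 8.62 to 9.31 CPM against 7.30 to 8.34 CPM (-0.19 ± 0.10). In both genes every treated library lay below every control, and no other liver member had groups apart, where 5.14% of all genes did. CNOT8 gave -0.18 ± 0.09 and PAN2 -0.18 ± 0.09.

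Only TOB1 of 40 tested members in liver had an unadjusted p under 0.05, where 8.32% of all genes had one. Leaving out 1 library gave 0 to 4 members, beside 6.96% to 8.39% of all genes. There were 4 without treated replicate 3, 3 without control replicate 3, 2 without control replicate 1, and 0 without treated replicate 1, 2 or 4. The median was -0.02 over the members and 0.01 over all genes, with 17 positive and 23 negative. PABPC3 was under the count filter. PABPC1, at 390 ± 36 CPM in controls and 382 ± 61.2 CPM in treated animals, gave -0.04 ± 0.13, CNOT1 gave 0.08 ± 0.22, PARN 0.08 ± 0.09 and XRN1 0.05 ± 0.12. Apart from TENT5B (0.87) and PABPC5 (0.39), at no more than 1.24 CPM in any library, the values lay from -0.44 to 0.17.

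In cervical cord, 8 of 9 members with gene models over 5000 bases had negative values (median -0.32) and 8 of 9 EXOSC genes positive ones (median 0.34). CNOT6 had 76.3, 58.3, 61.9 and 45.5 CPM in controls and 53.1, 39.7, 41.5 and 34.1 CPM in treated animals (-0.52 ± 0.17; edgeR adjusted p = 0.505). TUT7 had 55.1, 44.3, 42.5 and 37 CPM against 42.2, 35.9, 32.2 and 16.7 CPM (-0.52 ± 0.22). In both, treated replicate 4 was lowest, and the groups overlapped. EXOSC4, a ring subunit, had 5.35 to 6.74 CPM in controls and 6.69, 6.19, 11.4 and 17.97 CPM in treated animals (0.64 ± 0.28), with treated replicate 4 highest. Of 41 members 2 had an unadjusted p under 0.05, where 9.53% of all genes had one. Without 1 library there were 0 to 8 such members, and the share of all genes moved too. There were 8 without control replicate 2 (13.5% of all genes), 0 without control replicate 3 (3.88%) and 1 without control replicate 4 (8.1%). In 0 did the groups stay apart, where 6.07% of all genes did.

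Thoracic and lumbar cord gave 0 members at an unadjusted p under 0.05, where 2.33% and 1.74% of all genes had one, and 0 with groups apart, where 2.02% and 1.62% did. In thoracic cord the smallest p were those of TENT5C, at no more than 1.33 CPM in any library (-1.41 ± 0.68), EXOSC9 (0.28 ± 0.17), CNOT6 (-0.29 ± 0.18) and TENT2 (-0.22 ± 0.16). In lumbar cord they were those of EXOSC8 (0.57 ± 0.28), PABPC3 (0.95 ± 0.54), EXOSC1 (0.42 ± 0.26) and EXOSC6 (0.55 ± 0.39). EXOSC1 had 14.5 to 15.6 CPM in lumbar cord controls and 17.9, 14.8, 17.3 and 32.6 CPM in treated animals, with treated replicate 4 above all others. Treated replicate 2 lay among the controls.

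Treated replicate 4 of lumbar cord came from treated animal 5. To describe this animal, the levels per base of the 6 EXOSC genes with models under 2000 bases were summed and divided by the sum over the 9 members over 5000 bases (among them XRN1, CNOT1, CNOT6, PAN3, TUT4 and TUT7). The ratio was 2.28 in cervical, 3.36 in thoracic and 2.83 in lumbar cord and 2.91 in cervical ganglia of this animal. It was 0.540 to 1.32 in the 29 other libraries of cervical cord, lumbar cord and ganglia. Thoracic cord was high as a whole, at 0.988 to 2.97 in its other 7 libraries, and the liver of treated animal 5 lay within the range of the other livers, which was 0.393 to 0.619.

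**Figure D4:**
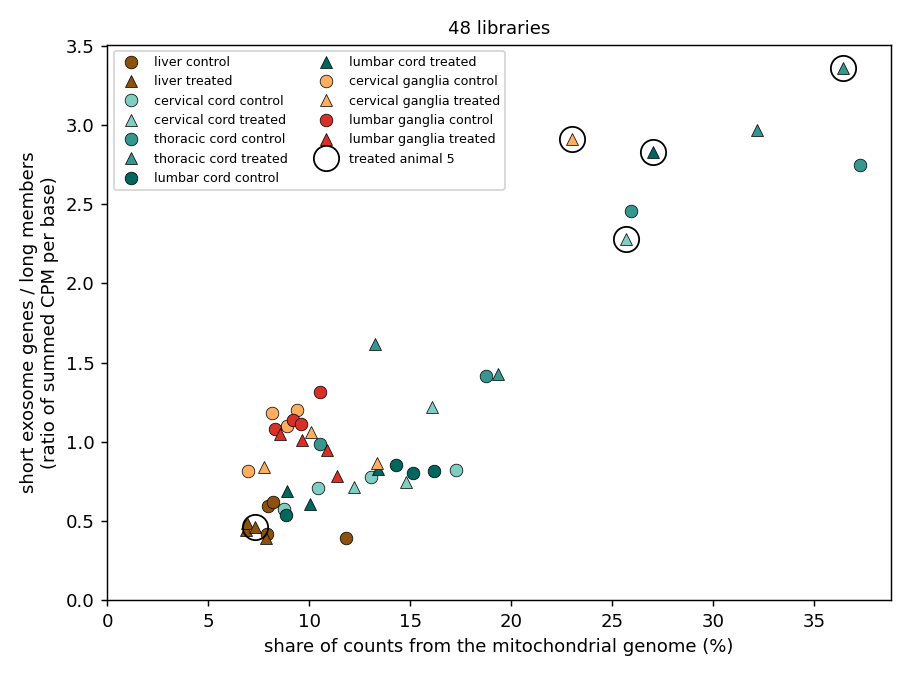
Ratio of the summed level per base of 6 short exosome genes to that of 9 long members, against the share of mitochondrial counts, for all 48 libraries. Circles are controls, triangles treated animals, colours tissues, and rings mark the libraries of treated animal 5. The 4 ringed cord and ganglion libraries lie at 2.28 to 3.36 and at 23.01% to 36.4% mitochondrial counts, beside 3 thoracic libraries of other animals, and the ringed liver lies with the other livers.

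The mitochondrial share of those 4 libraries was 23.01% to 36.4%, against 6.97% to 17.2% in the 29. In the other 7 thoracic cord libraries it was 10.5% to 37.3%, a range that holds the thoracic value of treated animal 5. Short genes outside the members were also high relative to long ones in its cervical ganglia: the mean log2 level of non-member genes under 2000 bases minus that of genes over 5000 bases was -0.74 there, against -1.77 to -1.62 in the other 3 treated and 4 control libraries. Without treated replicate 4, the EXOSC median went from 0.34 to 0.11 in cervical cord, from 0.19 to 0.05 in thoracic cord and from 0.26 to -0.02 in lumbar cord. The long members' median went from -0.32 to -0.22, from -0.19 to -0.09 and from -0.11 to 0.08. In thoracic cord the EXOSC median was also low without treated replicate 1 (0.04) and was 0.50 without control replicate 4. The Pearson correlation between log2 fold change and log2 gene length, over 41 members that share their libraries, was -0.62 in cervical cord with the library of treated animal 5 and -0.60 without it. It went from -0.16 to -0.05 in thoracic cord, from -0.47 to -0.13 in lumbar cord and from -0.24 to 0.28 in cervical ganglia. Over all genes the correlation went from -0.25 to -0.12 in cervical cord and from -0.24 to -0.09 in thoracic cord. In lumbar cord it went from -0.2 to 0.06 over all genes, and in cervical ganglia from -0.25 to 0.01.

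Lumbar ganglia hold no library of treated animal 5, and there the long members lay on the other side. Of the 9, 8 were positive (median 0.36), and the ratio was 1.08 to 1.32 in controls and 0.785 to 1.05 in treated libraries. Over all non-member genes the short minus long difference was -1.65 to -1.56 in controls and -1.69 to -1.64 in treated libraries, which overlap. The correlation of fold change with length was 0.25 over the members and 0.01 over all genes.

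Whether the treatment differences themselves differed between tissues was tested in limma on all 48 libraries with the animal as a block. Between ganglia and cord 0 of 41 members passed, where 0.308% of all genes did. The smallest p were those of CNOT6 (0.52 ± 0.18 higher in ganglia than in cord; limma adjusted p = 0.256), DIS3 (0.28 ± 0.10), TUT4 (0.57 ± 0.22), PAN3 (0.44 ± 0.17), TENT2 (0.33 ± 0.13) and XRN1 (0.51 ± 0.23). All 6 had an unadjusted p under 0.05 and a larger value in ganglia, where 4.31% of all genes did. Without treated animal 5 the lowest of these 6 values was 0.30 and the highest 0.47. Between ganglia and liver 0 members passed, where 0.0328% of all genes did, and TOB1 had the smallest p (0.53 ± 0.23; limma adjusted p = 0.656). An unadjusted p under 0.05 was found there for 2 members, TOB1 with a higher and PABPC3 with a lower value in ganglia, where 6.15% of all genes had one. Between lumbar and cervical ganglia 0 members passed, as 0% of all genes did, and 0 had an unadjusted p under 0.05, where 2.77% of all genes had one, with a limma adjusted p of 1 for each member, so the larger values in lumbar ganglia are not shown to differ from the cervical ones. Fits in edgeR without the animal block also called 0 members in all 3 comparisons.

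Other genes of RNA decay were read from lists chosen by function. In liver, cord and cervical ganglia 0 of the listed genes passed, as 0% of all genes did. In lumbar ganglia, 17 decapping and 5′ decay genes had 14 positive values (median 0.18), and XRN2, the nuclear relative of XRN1, rose from 61.8 ± 1.72 to 79.8 ± 3.91 CPM (SD, n = 4; 0.37 ± 0.08, edgeR adjusted p = 0.0383). Of 9 miRNA effectors 8 were positive (median 0.25), as were 6 of 7 nuclear exosome cofactors (0.22), 10 of 12 genes of AU-rich element binding (0.13), 7 of 11 of nonsense-mediated decay (0.09) and 9 of 14 that make or bind poly(A) tails (0.05). In edgeR 0 miRNA effectors, cofactors and tail genes passed, while 6 of 9, 2 of 7 and 3 of 14 had an unadjusted p under 0.05, beside the 22.6% of all genes.

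In all, 3 listed genes fell in lumbar ganglia, where 521 of 14267 genes were called lower. HBS1L, a ribosome rescue factor that works beside the Ski complex and the exosome, went from 239 ± 31.7 to 164 ± 12 CPM (SD, n = 4; -0.53 ± 0.11, edgeR adjusted p = 0.0383), and 4 of the 5 tested genes of its list were negative. SMG5, a factor of nonsense-mediated decay, went from 192 ± 10.9 to 121 ± 21.7 CPM (-0.68 ± 0.12, edgeR adjusted p = 0.0274). AUH, which binds AU-rich RNA and is also a mitochondrial hydratase, went from 108 ± 15.1 to 56.6 ± 9.28 CPM (-0.93 ± 0.15, edgeR adjusted p = 0.0219). HBS1L and SMG5 also passed with both ganglion levels together (-0.52 ± 0.11 and -0.68 ± 0.14; limma adjusted p = 0.0395 and 0.0358). The summed neuron markers were lower in the same treated libraries, and their part in these 3 values was not tested.

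TENT4A and TENT4B, poly(A) polymerases that add mixed tails, and their partner ZCCHC14 gave 0.30 ± 0.13, 0.42 ± 0.14 and 0.24 ± 0.12 in lumbar ganglia, with edgeR adjusted p of 0.142 or more. RQCD1, the older symbol of CNOT9 and outside the naming rule, gave 0.28 ± 0.09 there, from 38 ± 2.46 to 46.05 ± 1.71 CPM (edgeR adjusted p = 0.118).

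By position, as the deposited table gives it on Macaca_fascicularis_5.0, PAN3 spans chromosome 17 from 7867754 to 8030047, TUT4 chromosome 1 from 174957455 to 175089581, CNOT6 chromosome 6 from 180518154 to 180607604, CNOT2 chromosome 11 from 69264621 to 69373995 and TOB1 chromosome 16 from 36266198 to 36267235. The TOB1 model is 1038 bases long and the XRN1 model 10119 bases. The spans of EXOSC1, EXOSC3, EXOSC8, EXOSC9 and CNOT3 overlap those of PGAM1, TRMT10B, SUPT20H, CCNA2 and LENG1. These spans include introns, and whether the exons overlap was not checked. Counting used no strand, so reads in any shared exon cannot be assigned to either neighbour, and these values are uncertain. The values of PABPC1, PABPC3 and PABPC4, whose sequences are alike, are uncertain too.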

How the data were processed

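The members and the gene lists were chosen with earlier results of these data known. RNA was extracted with miRNeasy from tissue kept in RNAlater, and stranded mRNA libraries were sequenced in pairs of 50 bp, per the labels' protocols. The submitters' processing notes name STAR 2.5.3a as a tool. The authors deposited unnormalized counts, 1 value per gene symbol and library, from featureCounts 1.4.6-p1 on Macaca_fascicularis_5.0 with Ensembl release 94, per the file headers. The command recorded there sets no option for strand or for pairs, so overlapping and near-identical genes can share or lose reads.

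Each tissue was fitted in edgeR 4.0.16 (R 4.3.3) by the quasi-likelihood test with sex and treatment, TMM scaling, filterByExpr and Benjamini-Hochberg adjustment over all genes tested, at a threshold of 0.05. SE is the log2 fold change divided by the square root of F. Both ganglion levels together, and differences of treatment effects, were fitted in limma 3.58.1 voom with the animal as a random block (consensus correlation 0.72 over 16 ganglion libraries and 0.2 over 48, statmod 1.5.0). Tissues of the control animals were compared in edgeR with the animal as a block, since the labels tie each control number to 1 animal in every tissue. Alternatives were DESeq2 1.42.0, limma voom, median-ratio or total-count scaling, no filter, no sex term, a replicate block and leaving out libraries. Total-count scaling and leaving out all libraries of treated animal 5, or those over 30% mitochondrial counts, were chosen after seeing the data. The edgeR and limma scripts were tested on simulated counts.

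Control and treated animals share replicate numbers but are different animals. Deviations of same-numbered libraries correlated above 0.1 in all 4 pairs in lumbar cord alone (0.92, 0.19, 0.79 and 0.51), although no label says that a number marks a shared batch. Named members are the 4 of smallest p per treatment fit, the 4 highest and 4 lowest called members of at least 1 CPM per tissue contrast, and a fixed set of 18 deadenylases, adaptors, nucleases and tail-binding genes. Other members named were chosen after their values were seen. Context genes are named where they passed the threshold, with TENT4A, TENT4B and ZCCHC14 in addition.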

Additional observations from a re-analysis of the deposited data

Results flagged for a closer look

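In groups of 4 libraries, a value was singled out where its gap to the nearest other value, divided by the range of the group, passed Dixon's 95% critical value. Of 98 groups tested 9 had such a value, and chance gives about 1 in 20.

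EXOSC6 was at 20.04 CPM in cervical ganglia of treated replicate 4, far above the 6.52 to 8.21 CPM of the other 3. The ratio of short exosome genes to long members was far from the other libraries of its group in cervical ganglia of treated replicate 4 (2.91 against 0.840 to 1.06) and in lumbar cord of treated replicate 4 (2.83 against 0.611 to 0.829), both from treated animal 5. In lumbar cord of control replicate 1, nearly without MOG, it was 0.540 against 0.801 to 0.854.

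In thoracic cord, control replicate 1 had 18.8 CPM of EXOSC9 against 16.9 to 17.2 CPM. The other 4 values were in lumbar ganglia. CNOT8 was at 40.4 CPM in treated replicate 2 against 55.3 to 57.98 CPM. TOB1 was at 33.1 CPM in treated replicate 1 against 19.6 to 21.9 CPM. TOB2 was at 18.5 CPM in control replicate 4 against 12.8 to 13.4 CPM, and at 11.04 CPM in treated replicate 2 against 16.96 to 18 CPM.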

How the results depend on the processing

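In lumbar ganglia the 0 members called with edgeR became 4 with DESeq2, 1 without the sex term and 12 with total counts. Over the whole table these settings called 1650, 731 and 1843 genes, in place of 612. The members called stayed 0 in lumbar ganglia when any 1 library was left out. The 12 members at an unadjusted p under 0.05 there became 5 to 11 without 1 library, beside 15.7% to 25% of all genes. They were fewest without control replicate 1. In 1 fit of all 48 libraries there were 3, beside 8.98% of all genes. In both ganglion levels together there were 4 such members, beside 11.5% of all genes. They became 0 with the replicate block (10.3% of all genes) and 8 with both levels as independent libraries in edgeR (22.4%). On counts summed per animal there were 1 with edgeR (10%) and 2 with DESeq2 (12.6%). Without 1 animal there were 0 to 11, beside 6.44% to 22.7% of all genes. The 0 members called there became 0 to 1 without 1 animal. The 19 members called between cervical ganglia and cord of control animals became 9 to 19 without 1 animal. The 6639 genes called over the whole table in that comparison became 3963 to 6496. With the replicate block 0 members were called in each of the 6 tissues and in both ganglion levels together, as without it.

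With total counts CNOT7 in lumbar ganglia went from -0.04 to 0.15, and EXOSC3 in liver against lumbar ganglia went from 0.33 to -0.83. In lumbar ganglia these values changed sign when 1 library was left out: CNOT6L (-0.073 to 0.266), CNOT7 (-0.088 to 0.015), CNOT8 (-0.027 to 0.155), PARN (-0.013 to 0.12), PABPC1 (-0.014 to 0.24), TENT5C (-0.05 to 0.41) and BTG2 (-0.265 to 0.331). Of 1010 values of single genes under an alternative, 969 had the same direction and side of the threshold, 10 no longer passed, 18 newly passed and 13 changed sign. The cause of these changes was not tested.

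Over all genes, the 612 calls in lumbar ganglia became 1650 with DESeq2, 1843 with total counts, 206 with the replicate block, 64 in the 48-library fit and 18 to 670 without 1 library. The 0 calls of liver, cervical, thoracic and lumbar cord and cervical ganglia became 184, 93, 30, 7 and 211 with DESeq2, and 23, 11, 18, 0 and 60 in the 48-library fit. Cervical cord had 2 without the filter and cervical ganglia 2 without treated replicate 4. The 137 calls of both ganglion levels became 46 with the replicate block, 962 with independent libraries, 13 with edgeR and 447 with DESeq2 on summed counts and 3 to 963 without 1 animal. The 47 calls of ganglia minus cord became 23 without the animal block and 124 without the 2 lumbar cord libraries under 1 CPM of MOG, and the 5 of ganglia minus liver became 13 without the animal block. With 4 animals per group and members at about 1 CPM or less (TENT5B, TENT5C, PABPC3), smaller differences were not detectable.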
